A study of Homo sapiens with 6 samples.

Results

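Kinesin motor genes were examined in IOMM-Lee cells, an established line grown out of a grade 3 meningioma, the malignant form of this tumour of the meninges. A member was any protein-coding gene in the count table whose symbol is KIF or KIFC with its number and an optional letter, which gave 42 genes of 61859. The pseudogene KIF28P was left out as not protein-coding. All cells grew in DMEM with foetal bovine serum and antibiotics. The hypoxia group, 3 libraries, was kept for 48 h in a workstation at 0.2% oxygen. The normoxia group, also 3 libraries, is labelled normoxic at 48 h with no oxygen level named. The labels call the libraries biological replicates of this single line, so the spread is that between its cultures.

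Kinesins are motor proteins that use ATP to step along microtubules or to shorten them. Mitotic kinesins build the spindle, move chromosomes and complete cytokinesis, and their genes are transcribed mostly late in the cell cycle. Transport kinesins carry vesicles, endosomes, mitochondria and other cargo between the cell centre and its edge, most of them towards microtubule plus ends, and they work in dividing and resting cells alike. The comparison contrasts these classes under low oxygen. By known function, 14 members were placed in a mitotic class, 15 in a transport class and 6 in a ciliary class. The 7 others, including the depolymerase KIF2A that acts both at spindle poles and in neurons, were kept apart. Earlier results of these data were known when the classes were set.

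Library totals ran from 10619864 to 19554178 counts. Levels are CPM, counts scaled to the TMM-adjusted library total, in each library or as mean ± SD (n = 3 per group), and 3 counts correspond to between 0.133 and 0.316 CPM. "Rose" and "fell" mean an adjusted p under 0.05 in the edgeR quasi-likelihood test of hypoxia against normoxia over all 16411 genes tested. Of the meningioma markers, VIM was at 3052 ± 429 CPM in normoxia, whereas SSTR2 was at 0.844 ± 0.272 CPM and PTGDS and TBX15 were too low to test. Of the 6 tested, 3 rose and 3 fell (50% each, beside 31.2% and 31.0% of all genes). VIM was at 6149 CPM in hypoxia, and CRABP2 went from 3.18 to 185 CPM. The 8 markers of leukocytes, endothelium, glia, neurons and epithelium summed to at most 15.2 CPM in any library, most of it RBFOX3, and of the 3 that were tested 0 passed in edgeR or at an unadjusted p under 0.05. Hypoxia replicate 3 stood apart from the other hypoxia libraries for many members, and calls that change without it are given beside the results.

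The calls in the mitotic class were all falls, and most of those in the transport class were rises. Of 35 kinesin genes measured well enough to test, 13 fell and 6 rose, which together is 54.3%, beside 62.2% of all genes tested. The share that fell was 37.1% of the kinesins and 31.0% of all genes, and the share that rose was 17.1% and 31.2%. In the mitotic class 8 of 13 tested genes fell (61.5%) and 0 rose. The count of mitotic kinesins that were higher was also 0 at an unadjusted p under 0.05 and with DESeq2 or limma-voom, since all 13 log2 changes lay below 0. In the transport class 6 of 14 tested genes rose (42.9%) and 1 fell. The falls in the transport class numbered 2 with no filter on low counts, 2 without hypoxia replicate 3, 3 with upper-quartile scaling and 6 with library totals alone. Over all genes, 6288 of 40297 tested fell with no filter and 5482 of 16411 with upper-quartile scaling. All hypoxia libraries lay below all normoxia libraries for 8 of the 13 mitotic genes, beside 34.4% of all genes. All hypoxia libraries lay above all normoxia libraries for 7 of the 14 transport genes, beside 33.4% of all genes. The median log2 change was -0.60 for the mitotic class and 0.33 for the transport class, beside 0.0094 over all genes tested. No test was made on the classes themselves. With library totals alone as the scaling, the median of all genes shifted to -0.30 and the transport median was 0.02. In that fit 22 kinesins fell and 5 rose, while 6905 of all 16411 genes tested fell and 3421 rose. The split thus moved towards falls in the kinesins and over all genes. Without hypoxia replicate 3, 18 kinesins fell, beside 5630 of all 17085 genes tested in that fit. The transport median was 0.61 with only genes of at least 1 CPM in 3 libraries, and 0.51 without hypoxia replicate 2.

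**Figure D1:**
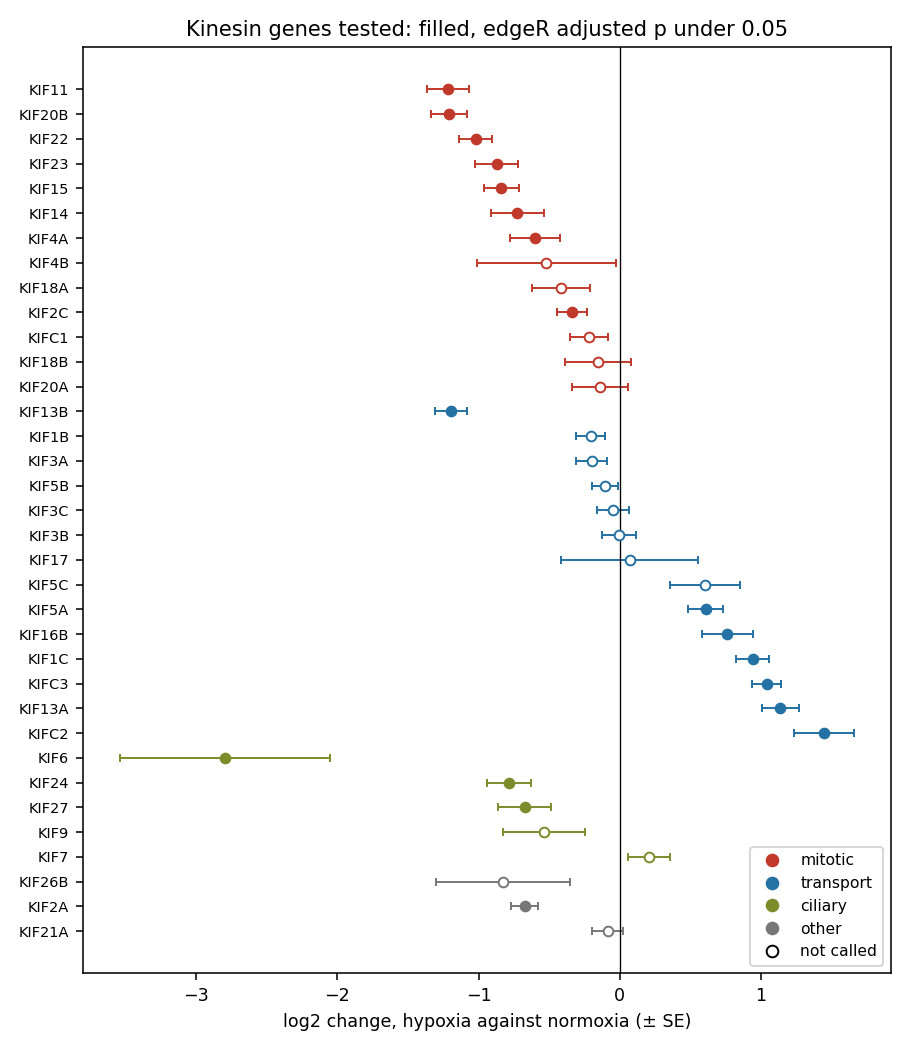
Log2 change in hypoxia against normoxia (x axis, with SE) for the 35 tested kinesin genes, coloured by class, with filled points for an edgeR adjusted p under 0.05. All 13 mitotic kinesins lie left of 0, while the transport kinesins run from -1.20 for KIF13B to 1.45 for KIFC2.

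Among the mitotic kinesins both motors that hold the spindle bipolar fell. KIF11 (ENSG00000138160, GRCh38 chromosome 10, 92593286 to 92655395), the plus-end motor that pushes the spindle poles apart, was at 137, 126 and 122 CPM in the normoxia libraries and at 42.8, 53.7 and 67.8 CPM in hypoxia. Every hypoxia library lay below every normoxia library, and the log2 change was -1.22 ± 0.15 (SE; edgeR adjusted p = 5.1e-05). In these bulk libraries fewer cells in mitosis and less transcript per cell cannot be told apart, and this holds for each mitotic gene below. KIF15, which can hold a bipolar spindle in place of KIF11, was at 51.6, 62.3 and 54.2 CPM in normoxia and at 27.9, 34.8 and 31.2 CPM in hypoxia. Its groups did not overlap either, and it fell by 0.84 ± 0.12 on the log2 scale (SE; edgeR adjusted p = 0.000151). As ratios, KIF11 was 2.33-fold lower and KIF15 1.79-fold lower.

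Motors that act on chromosome arms fell as well. KIF22, a chromokinesin that binds DNA and pushes chromosomes away from the poles, was at 60.4, 55.0 and 55.1 CPM in normoxia and at 28.8, 24.5 and 30.5 CPM in hypoxia, 2.03-fold lower (edgeR adjusted p = 2.59e-05). A transcript on the other strand overlaps 561 bases of its exons, so reads of the pair cannot be told apart where strand was not used. KIF4A, a chromokinesin that also sets the length of the central spindle, was at 39.6, 41.3 and 43.4 CPM in normoxia and at 22.2, 22.7 and 36.1 CPM in hypoxia, 1.52-fold lower (edgeR adjusted p = 0.0123). The KIF4A groups did not overlap, but hypoxia replicate 3 lay close to the normoxia libraries, and the adjusted p was 0.0541 without hypoxia replicate 2. KIF4B is an intronless copy of KIF4A. Their longest coding transcripts are 95.6% identical over 4343 aligned bases, so reads can be shared or dropped between them. KIF4B held 64 counts over the 6 libraries, with an average of 0.787 CPM in normoxia and 0.529 CPM in hypoxia (edgeR adjusted p = 0.375).

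The motors of the central spindle and cytokinesis split. KIF20B, a cytokinesis kinesin, had 157, 159 and 145 CPM in normoxia and 56.1, 63.4 and 79.0 CPM in hypoxia. It fell by 1.21 ± 0.13 on the log2 scale (SE; edgeR adjusted p = 1.27e-05), to a level below all normoxia libraries. KIF23, which forms centralspindlin with RACGAP1, had 102, 104 and 94.98 CPM in normoxia and 44.6, 49.4 and 70.01 CPM in hypoxia, 1.83-fold lower (edgeR adjusted p = 0.000626). KIF14, the partner of citron kinase at the midbody, had 108, 110 and 98.6 CPM in normoxia and 47.4, 57.2 and 85.5 CPM in hypoxia, 1.65-fold lower (edgeR adjusted p = 0.00848). These 3 genes separated the groups, with hypoxia replicate 3 the highest hypoxia library each time. KIF20A, which carries the chromosomal passenger complex to the central spindle, had 93.0, 93.0 and 93.8 CPM in normoxia and 64.7, 71.5 and 117 CPM in hypoxia. Its hypoxia libraries lay on both sides of a tight normoxia group, and its log2 change of -0.14 ± 0.20 (SE) was not called (edgeR adjusted p = 0.561).

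Other mitotic members shorten or tune microtubule ends or focus the spindle poles. KIF2C, the depolymerase at centromeres that removes wrong attachments, had 61.6, 62.1 and 60.8 CPM in normoxia and 42.6, 50.7 and 52.1 CPM in hypoxia, 1.27-fold lower (edgeR adjusted p = 0.0161). KIF18A, which damps chromosome movements at the metaphase plate, had 51.9, 52.8 and 45.3 CPM in normoxia and 29.9, 29.5 and 51.8 CPM in hypoxia (edgeR adjusted p = 0.105). KIF18B, which acts on astral microtubules, had 49.6, 44.0 and 46.0 CPM in normoxia and 32.2, 31.8 and 60.4 CPM in hypoxia (edgeR adjusted p = 0.591). Of these, the KIF2C groups did not overlap, whereas hypoxia replicate 3 reached the normoxia range for KIF18A and passed it for KIF18B. KIFC1, a minus-end motor that focuses spindle poles and clusters extra centrosomes, had 43.2, 43.6 and 47.2 CPM in normoxia and 30.9, 40.5 and 43.7 CPM in hypoxia (edgeR adjusted p = 0.183), with an antisense overlap of 12.7% of its exons. KIF2B, another depolymerase, had no count in any library, which leaves room for up to 3 counts in each.

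Hypoxia replicate 3 was the highest hypoxia library for 11 of the 13 tested mitotic kinesins, and hypoxia replicate 1 the lowest for 10. The order was similar in the transport class, where replicate 3 was highest for 10 of 14 genes and replicate 1 lowest for 9. Replicate 3 was highest for 2 of 5 tested ciliary kinesins and for 1 of 3 outside these classes. Without hypoxia replicate 3, 12 of the 13 mitotic kinesins fell in place of 8, beside 5630 of all 17085 genes tested in that fit. The genes added were KIF18A at a log2 change of -0.78, KIF18B at -0.57, KIF20A at -0.48 and KIFC1 at -0.35 (edgeR adjusted p = 2.5e-05, 0.00029, 0.000275 and 0.0222). The proliferation marker MKI67 followed the same order, with 503, 612 and 795 CPM in the hypoxia libraries and 687, 699 and 706 CPM in normoxia. FOXM1, a transcription factor of late cell cycle genes, did so too, at 64.5, 74.4 and 106 CPM in hypoxia and 88.2, 92.5 and 95.04 CPM in normoxia. Neither was called with all libraries (edgeR adjusted p = 0.461 and 0.38), and both fell without hypoxia replicate 3 (edgeR adjusted p = 0.00835 and 0.00115) or when scaled by totals only (edgeR adjusted p = 0.0271 and 0.0246). When scaled by totals only, 6905 of all 16411 genes tested fell. Hypoxia replicate 3 was also the deepest hypoxia library, with 18447885 counts against 10980973 and 10619864 in replicates 1 and 2. The order was not counted over all genes, and its part in the single-gene results was not tested.

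**Figure D2:**
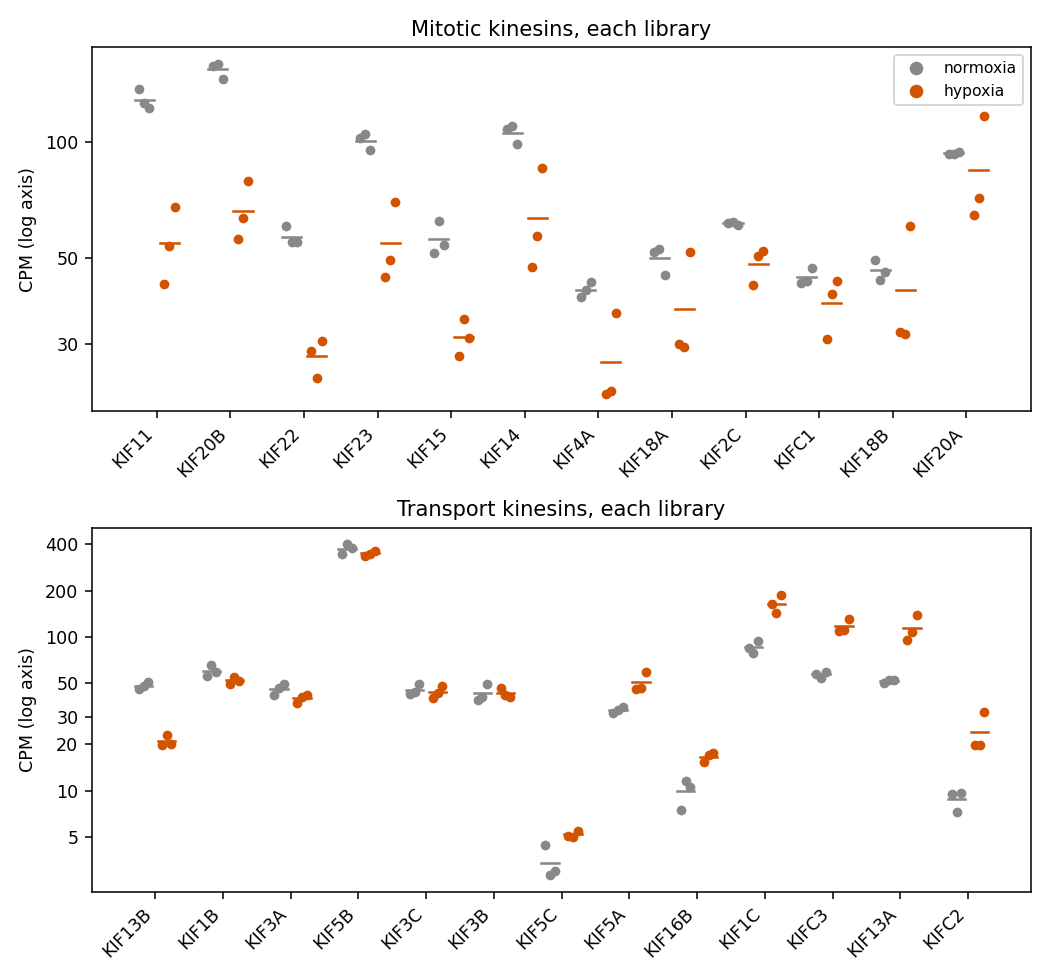
CPM of each library (points, log axis) and group means (horizontal lines) for the mitotic and transport kinesins with mean CPM of at least 1, ordered by log2 change. The third hypoxia point lies highest for most mitotic genes, while KIF1C, KIFC3, KIF13A and KIFC2 have all hypoxia points above all normoxia points.

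CENPE, a kinetochore kinesin whose symbol falls outside the KIF names, had 164, 179 and 158 CPM in normoxia and 80.6, 75.6 and 123 CPM in hypoxia, 1.79-fold lower (edgeR adjusted p = 0.00176). Of 16 spindle and midbody partners of mitotic kinesins, 11 fell (68.8%, beside 31.0% of all genes), and the median of their log2 changes was -0.57. HMMR, a spindle assembly factor, was 3.33-fold lower, the cytokinesis regulator ECT2 1.80-fold and the passenger complex subunit BIRC5 1.77-fold. The summed level of these partners was 1820 to 1881 CPM in normoxia and 1048 to 1350 CPM in hypoxia. Among 20 genes of the E2F, RB and DREAM regulators of cell cycle transcription, 12 fell and 4 rose (60% and 20%, beside 31.0% and 31.2% of all genes). E2F1 was 4.09-fold lower and TFDP2, an E2F partner, 2.91-fold lower. E2F2 was 20.5-fold lower, but its hypoxia counts were at or under the floor. Subunits of the DREAM complex went both ways, with more falls than rises. LIN37, LIN54 and E2F5 rose 3.49-fold, 2.13-fold and 1.41-fold. LIN52, LIN9 and RBBP4 were 2.53-fold, 1.72-fold and 1.70-fold lower. TFDP1, RBL1 and E2F4 were 2.55-fold, 2.31-fold and 1.47-fold lower, and RBL2 was not called.

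Transport kinesins rose in part. KIFC2 (ENSG00000167702, chromosome 8, 144466043 to 144474202), a motor with its head at the C-terminal end known from neurons, had 9.54, 7.29 and 9.69 CPM in normoxia and 19.9, 19.8 and 32.2 CPM in hypoxia. It rose by 1.45 ± 0.21 on the log2 scale (SE; edgeR adjusted p = 0.000183). Exons of FOXH1 on the other strand overlap 791 bases or 17.8% of its exons, so with the strand setting not given the value is uncertain. KIFC3, a minus-end motor at the Golgi and at epithelial junctions, had 57.7, 54.3 and 58.7 CPM in normoxia and 108, 111 and 131 CPM in hypoxia, 2.06-fold higher (edgeR adjusted p = 1.03e-05). Both C-terminal transport kinesins thus rose with no overlap between the groups, unlike the C-terminal mitotic motor KIFC1.

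In the kinesin-3 family, which carries vesicles and endosomes, close relatives moved in opposite directions. KIF13A (ENSG00000137177, chromosome 6, 17759183 to 17987623), which moves recycling endosomes and Golgi-derived carriers, had 50.3, 52.4 and 52.8 CPM in normoxia and 96.1, 107 and 138 CPM in hypoxia. It rose by 1.14 ± 0.13 on the log2 scale (SE; edgeR adjusted p = 2.92e-05). KIF13B (ENSG00000197892, chromosome 8, 29067279 to 29263124), which binds the scaffold DLG1, had 46.0, 48.0 and 50.6 CPM in normoxia and 19.9, 23.0 and 20.1 CPM in hypoxia. It fell by 1.20 ± 0.11 on the log2 scale (SE; edgeR adjusted p = 6.92e-06), the single transport kinesin that fell. Neither gene's groups overlapped. The ratio of KIF13A to KIF13B counts was 1.09, 1.09 and 1.04 in normoxia and 4.81, 4.63 and 6.88 in hypoxia. This ratio does not depend on the scaling between libraries. It differed by 2.31 on the log2 scale, and the two-sided exact permutation test gave p = 0.1, the smallest it allows with 3 against 3 libraries (adjusted p = 0.129 over 9 pairs of relatives).

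KIF1C, a kinesin-3 that supports Golgi traffic and the movement of integrins and dense-core vesicles, had 84.7, 78.5 and 94.4 CPM in normoxia and 163, 144 and 188 CPM in hypoxia, 1.92-fold higher (edgeR adjusted p = 4.99e-05). Its relative KIF1B, a carrier of mitochondria and synaptic vesicle precursors, had 55.6, 65.8 and 59.0 CPM in normoxia and 49.5, 55.0 and 51.6 CPM in hypoxia (edgeR adjusted p = 0.106). The KIF1B groups did not overlap. It passed as lower with upper-quartile scaling (edgeR adjusted p = 0.04), no filter on low counts (edgeR adjusted p = 0.0466) and library totals alone (edgeR adjusted p = 0.00207). The ratio of KIF1B to KIF1C counts went from 0.625 to 0.838 in normoxia to between 0.275 and 0.382 in hypoxia (exact permutation p = 0.1, adjusted p = 0.129). KIF16B, which binds early endosomes through a lipid-binding domain, had 7.499, 11.6 and 10.6 CPM in normoxia and 15.3, 17.02 and 17.6 CPM in hypoxia, 1.69-fold higher (edgeR adjusted p = 0.00387). KIF1A, the neuronal synaptic vesicle motor, had 12 counts in all and was not tested. STARD9, a kinesin-3 known from centrosomes and outside the KIF names, had 24.2, 26.2 and 24.3 CPM in normoxia and 35.4, 42.6 and 26.7 CPM in hypoxia. It rose 1.40-fold (edgeR adjusted p = 0.023). That call was lost without any single library except hypoxia replicate 3 (edgeR adjusted p of up to 0.114), and also with library totals alone (edgeR adjusted p = 0.384), with upper-quartile scaling and with no filter on low counts.

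The kinesin-1 and kinesin-2 heavy chains, the general long-range carriers, mostly did not pass the test. KIF5B, the kinesin-1 heavy chain found in most cells, had 349, 400 and 378 CPM in normoxia and 338, 345 and 364 CPM in hypoxia (log2 change -0.11 ± 0.09 SE, edgeR adjusted p = 0.341). KIF5A, a kinesin-1 heavy chain best known from neurons, had 31.7, 33.5 and 35.0 CPM in normoxia and 46.1, 46.8 and 59.3 CPM in hypoxia, 1.52-fold higher (edgeR adjusted p = 0.0015, or 0.0611 with library totals alone). KIF5C, also neuronal, had 4.39, 2.82 and 2.98 CPM in normoxia and 5.06, 4.99 and 5.48 CPM in hypoxia (edgeR adjusted p = 0.0535). The KIF5B groups overlapped, and those of KIF5A and KIF5C did not. KIF5C passed the threshold without normoxia replicate 1 (edgeR adjusted p = 0.0273) and with limma-voom (adjusted p = 0.0434).

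The heterotrimeric kinesin-2 motor, which serves intraflagellar transport as well as cytoplasmic cargo, pairs KIF3A with KIF3B or KIF3C. KIF3A had 41.9, 46.3 and 49.4 CPM in normoxia and 36.9, 40.8 and 42.0 CPM in hypoxia (edgeR adjusted p = 0.139). It passed as lower without hypoxia replicate 3 (edgeR adjusted p = 0.0436), with upper-quartile scaling (edgeR adjusted p = 0.0475) and with library totals alone. KIF3B had 39.0, 40.8 and 49.3 CPM in normoxia and 46.5, 41.6 and 40.6 CPM in hypoxia (edgeR adjusted p = 0.971). KIF3C had 42.6, 44.1 and 49.2 CPM in normoxia and 39.9, 43.1 and 47.9 CPM in hypoxia (edgeR adjusted p = 0.721). All 3 overlapped between the groups, with log2 changes of -0.20 ± 0.11, -0.0054 ± 0.12 and -0.05 ± 0.11 (SE). KIFAP3, the subunit that links them to cargo, fell from 52.1, 54.6 and 51.2 CPM to 38.1, 45.4 and 37.3 CPM (edgeR adjusted p = 0.0102). KIF17, the homodimeric kinesin-2, held 72 counts in all and was at 0.755 ± 0.124 CPM in normoxia and 0.790 ± 0.438 CPM in hypoxia.

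Of 18 tested adaptors, light chains and other partners of the transport kinesins, 10 rose and 4 fell (55.6% and 22.2%, beside 31.2% and 31.0% of all genes), and the median of their log2 changes was 0.40. KLC1, a kinesin-1 light chain, had 35.7, 27.9 and 24.99 CPM in normoxia and 58.7, 55.6 and 55.4 CPM in hypoxia (edgeR adjusted p = 0.000151). The scaffold MAPK8IP3 rose 3.54-fold, its relative MAPK8IP1 3.14-fold and the light chain KLC4 2.21-fold. The falls included the mitochondrial adaptor TRAK2 at 2.32-fold, KIFBP, which binds and holds back kinesin motors, also at 2.32-fold, and the lysosome-positioning factor BORCS5 at 2.08-fold. Of 25 tested genes of dynein and dynactin, the motor that moves towards minus ends, 13 rose and 2 fell (52% and 8%, beside 31.2% and 31.0% of all genes), and with library totals alone 6 rose and 7 fell. The falls were 4 without hypoxia replicate 3 and 5 with no filter, beside 5630 of all 17085 and 6288 of all 40297 genes tested in those fits. NDEL1, a dynein regulator, rose 2.36-fold and the adaptor BICD2 1.68-fold, while the light chain DYNLT1 was 2.05-fold lower. Of 12 tested tubulins, 4 rose and 3 fell (33.3% and 25%, near the 31.2% and 31.0% of all genes). Among the alpha and beta forms, the subunits of the track, TUBA4A was 3.04-fold higher and TUBB4B 1.86-fold lower. The calls include the gamma-tubulins TUBG1 and TUBG2, which are not track subunits, at 1.32-fold lower and 1.81-fold higher. With library totals alone 6 tubulins fell. Under that scaling 6905 of all 16411 genes tested fell and 3421 rose.

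Ciliary kinesins had 3 falls among 5 tested genes (60%, beside 31.0% of all genes). KIF24, which shortens microtubules at the mother centriole and holds back cilium growth, had 21.9, 21.8 and 21.7 CPM in normoxia and 10.5, 12.0 and 15.05 CPM in hypoxia, 1.72-fold lower (edgeR adjusted p = 0.00113). KIF27, a relative of KIF7, went from 14.8 ± 1.08 to 9.14 ± 2.20 CPM, 1.60-fold lower (edgeR adjusted p = 0.00859). KIF6 had 15, 18 and 13 counts in the normoxia libraries and 0, 3 and 1 in hypoxia, which are at or under the floor of 3 counts (edgeR adjusted p = 0.00708). KIF7, a regulator of Hedgehog signalling at the cilium tip, was at 10.4 ± 0.290 and 12.0 ± 0.968 CPM (edgeR adjusted p = 0.249), and its log2 change of 0.21 became -0.10 with library totals alone. Exons of TICRR on the other strand overlap 11.8% of those of KIF7. KIF9 was at 6.16 ± 1.10 and 4.35 ± 1.53 CPM (edgeR adjusted p = 0.129), and exons of KIF9-AS1 on the other strand overlap 14.9% of its own. Of 21 intraflagellar transport genes, 10 fell and 4 rose (47.6% and 19%, beside 31.0% and 31.2% of all genes). The rises were 2 without normoxia replicate 2, beside 4487 of all 17496 genes tested in that fit. Of these genes, WDR35 was 5.57-fold lower and IFT20 2.07-fold higher.

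Among the members outside these classes, KIF2A fell 1.60-fold, from 140, 154 and 137 CPM to 95.5, 90.4 and 84.6 CPM (edgeR adjusted p = 0.000118). Exons of IPO11 on the same strand overlap 428 bases or 8.97% of those of KIF2A, where strand cannot tell the reads apart. The fall of this depolymerase did not follow hypoxia replicate 3, which was its lowest library. The count ratio of its mitotic relative KIF2C to KIF2A was 0.439, 0.403 and 0.444 in normoxia and 0.446, 0.561 and 0.616 in hypoxia (exact permutation p = 0.1, adjusted p = 0.129). KIF21A, which slows microtubule growth at the cell cortex, was at 54.4 ± 2.44 and 51.3 ± 5.77 CPM (edgeR adjusted p = 0.518). KIF26B was at 0.781 ± 0.128 and 0.408 ± 0.168 CPM (edgeR adjusted p = 0.151). In all, 7 of the 42 members were not tested, of which KIF2B and KIF12 had no counts and KIF1A, KIF19, KIF21B, KIF25 and KIF26A held 1 to 15 counts over the 6 libraries.

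Levels of different genes were compared per kilobase of annotated exon. KIF5B was highest in both groups, at 63.9 CPM per kilobase in normoxia and 59.4 in hypoxia. In normoxia it was followed by KIF2A at 30.1, KIF11 at 26.3, KIF20A at 23.6 and KIF20B at 22.4 CPM per kilobase. In hypoxia the next were KIF20A at 21.3, KIF1C at 19.2, KIF2A at 18.9 and KIF2C at 13.3 CPM per kilobase, and KIF11 was at 11.3. Mitotic kinesins made up 54.2%, 52.2% and 51.6% of the summed kinesin level per kilobase in the normoxia libraries and 37.0%, 39.7% and 44.8% in the hypoxia libraries. Transport kinesins made up 33.0%, 34.6% and 36.1% in normoxia and 51.0%, 48.9% and 46.3% in hypoxia. Neither share overlapped between the groups, and the transport class was the larger in each hypoxia library. These shares are a description and were given no test. The mitotic sum went from 186 ± 4.38 CPM per kilobase in normoxia to 119 ± 27.2 in hypoxia. The transport sum went from 122 ± 6.26 to 142 ± 11.2, and that of all kinesins from 353.5 ± 6.15 to 292 ± 37.1. The transport share thus grew in part because the total was lower.

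**Figure D3:**
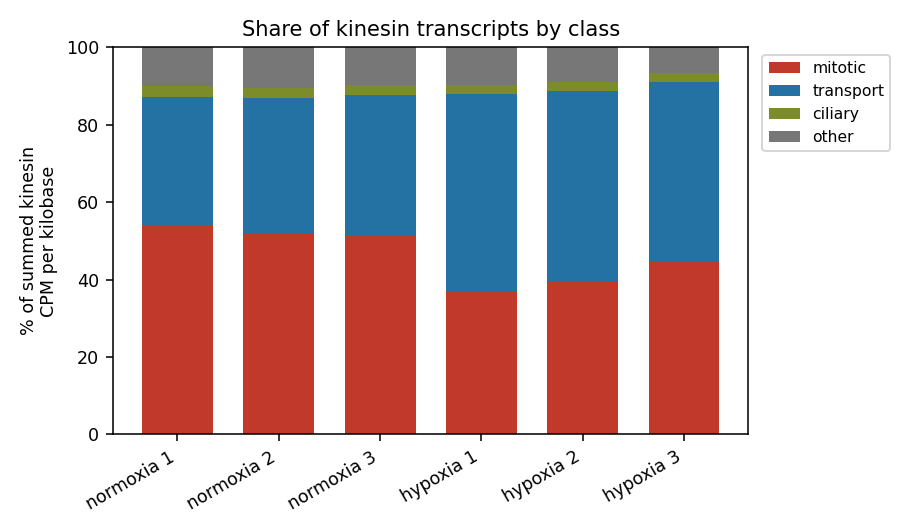
Share of the summed kinesin level (CPM per kilobase of exon, y axis in percent) held by each class in each of the 6 libraries. The mitotic share is larger than the transport share in every normoxia library and smaller in every hypoxia library, with hypoxia replicate 3 closest to normoxia at 44.8% against 46.3%.

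Among the mitotic relatives, KIF20A had 0.592, 0.586 and 0.646 times the counts of KIF20B in normoxia and 1.15, 1.13 and 1.48 times in hypoxia, a difference of 1.03 on the log2 scale (exact permutation p = 0.1, adjusted p = 0.129). Hypoxia replicate 3 stood higher than the other hypoxia libraries, but all 3 were above normoxia. The KIF18A to KIF18B ratio was between 0.985 and 1.20 in normoxia and between 0.859 and 0.931 in hypoxia, a log2 difference of -0.25 at the same p. The KIFC1 to KIFC3 ratio lay outside its normoxia range of 0.749 to 0.804 in every hypoxia library, at 0.285 to 0.366. Of the 9 pairs, 7 reached the smallest p of the exact permutation test, and KIF3B to KIF3A (exact p = 0.2) and KIF3C to KIF3B (exact p = 0.8) did not. That p is reached whenever the groups do not overlap, and no share over other gene pairs was computed. Of all single genes tested, 34.4% lay lower and 33.4% higher in hypoxia without overlap. The 7 of 9 is thus not shown to be particular to kinesin relatives.

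Promoter sequences showed a difference between the classes that the grouping by function did not use. RefSeq windows on GRCh38.p14, 250 bases before to 50 after the start, were matched for 34 of the 42 members by symbol, with the first listed start for the 7 genes that have several. KIF5A, KIF13B, KIF19, KIF21B, KIF26B, KIF27, KIFC2 and KIFC3 were not matched. The cell cycle homology region (CHR) is the site through which the DREAM and MuvB complexes act on late cell cycle genes, often beside CCAAT boxes bound by NF-Y. It was searched as TTTGAA or TTTAAA on both strands, the latter being its own reverse complement. A CHR form was found in 12 of 14 mitotic kinesin windows (85.7%), 2 of 11 transport windows (18.2%) and 24% of all 35116 windows. CCAAT was found in 11 of 14 mitotic windows (78.6%), 3 of 11 transport windows (27.3%) and 34.6% of all. Both motifs occurred together in 10 of 14 mitotic windows and in 9.27% of all. Both were present in 5 of the 5 mitotic kinesins that were tested but not called, and in 5 of the 8 that fell. Those not called include KIF4B, the copy of KIF4A, with 64 counts in all. In KIF4A, which fell, the pair lies 58 to 54 and 34 to 29 bases before the start. In KIF4B a pair lies 21 to 17 bases before and 4 to 9 after it, with the same strands and spacing. The mitotic motif counts thus hold related windows that are not independent, in both the fallen and the uncalled group.

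The core of the hypoxia response element, the site of HIF, was searched as ACGTG or GCGTG on both strands. It was found in 13 of 14 mitotic windows, 7 of 11 transport windows and 48.4% of all windows. All 8 mitotic kinesins that fell held it, as did 4 of the 5 that were tested and not called and the 3 transport kinesins that rose and have a window. KIF4A and its copy KIF4B both hold it and are again counted separately. Motifs this short occur often, and a match is neither a site nor a cause.

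**Figure D4:**
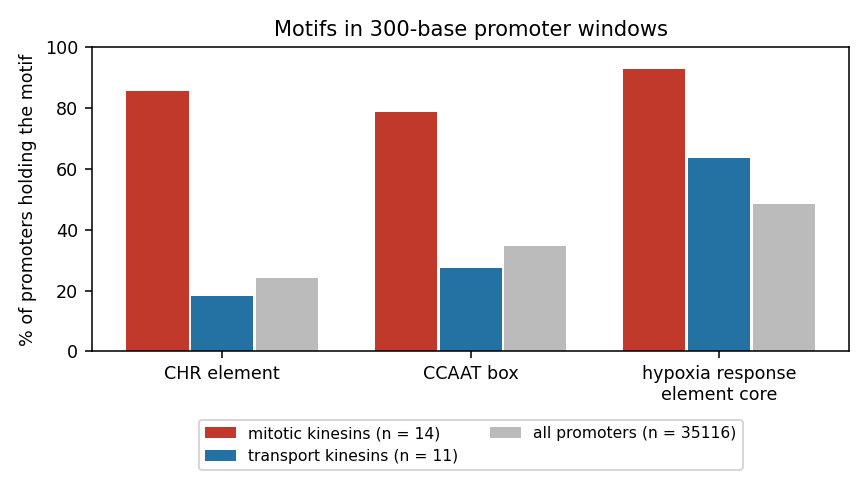
Percent of 300-base promoter windows (y axis) that hold a CHR form, a CCAAT box or a hypoxia response element core on either strand, for mitotic kinesins, transport kinesins and all RefSeq promoters. The mitotic bars for CHR and CCAAT stand at 85.7% and 78.6%, and the transport bars at 18.2% and 27.3% lie below those of all promoters.

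The stretches printed here are from those windows, 5′ to 3′ along the gene's strand, with every match to the searched motifs in capitals (a match on the other strand appears as its reverse complement). The first shows the layout of a mitotic kinesin that fell, with a CCAAT box 53 to 49 and a CHR 28 to 23 bases before the start, both on the other strand. It is KIF11 at chr10:92593010-92593129 (plus strand), the 120 bases before the start.
KIF11: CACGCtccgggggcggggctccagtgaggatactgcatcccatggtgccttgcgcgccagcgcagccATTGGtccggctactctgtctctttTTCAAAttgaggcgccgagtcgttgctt
KIF4A at chrX:70289984-70290089 (plus strand), 120 to 15 bases before the start, has the same pair in the same order, with the CHR on the forward strand, and a hypoxia response element core further out.
KIF4A: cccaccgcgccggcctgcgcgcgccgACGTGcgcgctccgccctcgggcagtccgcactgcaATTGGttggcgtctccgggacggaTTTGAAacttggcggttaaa
KIF23 at chr15:69414279-69414308 (plus strand) is shown for its close spacing, a CCAAT box and a CHR within 30 bases.
KIF23: gcgctgATTGGcccgTTTGAAatgcgccag
KIF20B at chr10:89701440-89701589 (plus strand), 150 bases before the start, fell about as much as KIF11 and holds a pair of CCAAT boxes, with its CHR matches after the start.
KIF20B: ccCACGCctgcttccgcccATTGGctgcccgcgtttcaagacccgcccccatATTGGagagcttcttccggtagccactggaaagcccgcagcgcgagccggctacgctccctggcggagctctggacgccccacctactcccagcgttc
KIF18B at chr17:44947774-44947908 (minus strand), directly before the start, is a mitotic kinesin that was not called. Like KIF20B it holds a pair of CCAAT boxes, with its CHR match after the start.
KIF18B: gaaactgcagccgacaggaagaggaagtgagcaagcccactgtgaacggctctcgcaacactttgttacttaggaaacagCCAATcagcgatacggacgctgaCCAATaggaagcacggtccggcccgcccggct
KIF13A at chr6:17987636-17987785 (minus strand), 150 bases before the start, rose and shows no match in this GC-rich stretch, its single hypoxia response element core lying further out.
KIF13A: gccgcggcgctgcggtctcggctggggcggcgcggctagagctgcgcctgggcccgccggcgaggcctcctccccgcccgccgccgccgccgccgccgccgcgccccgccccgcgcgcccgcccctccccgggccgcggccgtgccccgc
KIF1C at chr17:4997800-4997947 (plus strand), 150 to 3 bases before the start, rose and holds a hypoxia response element core alone.
KIF1C: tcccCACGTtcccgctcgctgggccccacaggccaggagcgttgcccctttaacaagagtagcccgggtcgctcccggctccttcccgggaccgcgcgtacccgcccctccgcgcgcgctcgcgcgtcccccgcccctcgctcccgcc
KIF16B at chr20:16573449-16573598 (minus strand), 150 bases before the start, rose and holds a pair of these cores.
KIF16B: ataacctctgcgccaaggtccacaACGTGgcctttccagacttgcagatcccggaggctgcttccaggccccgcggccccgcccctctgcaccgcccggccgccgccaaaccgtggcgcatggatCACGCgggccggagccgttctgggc
These stretches were picked to show layouts, and the counts over all windows are those given above. KIF15 and KIF2C, which fell, had no CCAAT box in the window, whereas CCAAT matches were present in the transport kinesins KIF1B, KIF3B and KIF5B. Where no match was found, these letters are not in the window, which says nothing of the factors.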

How the data were processed

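RNA was measured by sequencing in 6 libraries, grouped by their titles, which also number the replicates. The deposited counts are raw reads for each Ensembl gene. Per the submitters' processing notes, the tools were featureCounts 2.0.1, HISAT2 2.1.0, fastp 0.20.1 and DESeq2 1.37.5, with the build GRCh38.p13, and the strand setting is not given in the sources used here. The 1 line that names no gene (0.00243% of counts) was left out. Of 61859 genes, 61756 matched a symbol, and gene types, exon lengths and coordinates were those of GENCODE 29 (GRCh38). The normalized values that the authors also deposited were not used.

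Counts were tested with edgeR 4.0.16 in R 4.3.3 (filterByExpr with minimum count 10 and total 15, TMM, robust quasi-likelihood F test, Benjamini-Hochberg adjustment over all genes). The SE is the log2 change divided by the square root of F. Ratios of relatives used counts plus 0.5. The fit was also run on simulated counts, and that outcome is not given here. Alternatives were DESeq2 1.42.0, limma-voom (limma 3.58.1), other scalings and filters, a replicate block and leaving out each library. Values in every library are given for mitotic and transport kinesins with mean CPM of at least 1, and up to 3 partners per list and direction, from those with the largest called changes, are named beside KIFAP3, KLC1, CENPE, STARD9, FOXM1 and MKI67. KIF24 and KIF2A are given by library too, chosen after their values were seen. So were LIN52, LIN9, RBBP4, TFDP1, RBL1, RBL2, E2F4 and E2F5, which are named as well. The members, classes and lists were chosen with earlier results of these data known.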

Additional observations from a re-analysis of the deposited data

How the results depend on the processing

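Of the 19 kinesin genes called, 17 kept their direction and call at an adjusted p under 0.05 in each other fit that gave them a value, the exceptions being KIF4A and KIF5A. At an adjusted p of 0.01, 6 mitotic kinesins fell, with KIF4A and KIF2C lost. At 0.05, with KIF2A and KIF24 counted as mitotic, 10 of that class fell. With the KIF21 and KIF26 genes counted as transport, 6 of that class rose and 1 fell, as without them. With library totals alone 22 kinesins fell, 6 of them in the transport class, and the transport median was 0.018. Under that scaling 6905 of all 16411 genes tested fell and 3421 rose. The transport kinesins that fell numbered 3 with upper-quartile scaling and 2 with no filter, and 1 to 2 when single libraries were left out. Over all genes, 5482 of 16411 tested fell with upper-quartile scaling and 6288 of 40297 with no filter. Without single libraries 4578 to 5630 of all genes fell and 4487 to 5283 rose, of 16906 to 17496 tested. The transport median was 0.61 with CPM of at least 1 in 3 libraries, which left fewer genes, and 0.23 to 0.51 without single libraries. For dynein and dynactin the falls were 7 with library totals, 4 with upper-quartile scaling, 5 with no filter and 2 to 4 without single libraries, and the rises 6 with library totals. With library totals 6 tubulins fell, 2 intraflagellar transport genes rose and 2 cell cycle regulators rose. The intraflagellar rises were 2 with no filter, beside 5051 of all 40297 genes tested in that fit, and 2 to 5 without single libraries. The cause of these shifts was not tested.

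Directions turned only for genes that were not called. KIF7 was at -0.10 with library totals, and KIF3B at 0.0031 with CPM of at least 1 in 3 libraries and at -0.10 to 0.09 without single libraries. KIF17 was at -0.049 with limma-voom, -0.0058 with upper-quartile scaling, -0.25 with library totals, -0.048 with no filter and -0.24 to 0.40 without single libraries. KIF20A ran from -0.48 to 0.0075 and MKI67 from -0.35 to 0.0014 without single libraries. The main fit did not pair libraries by replicate number. Deviations of same-numbered libraries correlated at -0.106, 0.0864 and -0.0378, and with 3 libraries a group this cannot exclude pairing. With a replicate block 13 kinesins fell and 6 rose, and no kinesin call changed.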
